A study of Mus musculus with 13 samples.

Results

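The 10 genes described here, Sox10, Foxd3, Tfap2a, Tfap2b, Sox9, Twist1, Ednrb, Erbb3, Snai2 and Prrx1, are known markers and regulators of the neural crest. They were chosen by name, with earlier results of these data known, and all 10 were found among the 23217 genes of the deposited table. Polyadenylated RNA had been sequenced from 13 mouse embryos (strain background C57BL/6J) collected at E9.5, that is, on embryonic day 9.5. Of these 3 are labelled xHet and 10 xHomo. The labels spell out neither name and give no sex, litter or batch. The series concerns Tet1, a dioxygenase that oxidizes 5-methylcytosine, in the erasure of imprints, and the names are understood here, from knowledge of the study and not from the labels, to refer to fathers carrying 1 or 2 mutant Tet1 alleles. The embryos' own Tet1 genotype is not stated in the labels, and neither is the kind of mutation or whether embryos came from separate litters. P-values therefore measure only the spread between these samples. Levels are given as FPKM, which counts fragments relative to transcript length and to library size, so levels of different genes can be set side by side; the read depth behind them is unknown.

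The neural crest forms where the neural plate meets the surface ectoderm. Its cells leave the closing neural tube, migrate through the embryo and give rise to peripheral neurons and glia, pigment cells and much of the skeleton of the face. In the mouse this migration is under way at the stage sampled. Tfap2a and Tfap2b encode AP-2 factors that act from the border stage onward, Snai2, Foxd3, Sox9 and Sox10 encode factors that specify the crest or keep it multipotent, and Twist1 and Prrx1 encode factors of the mesenchyme that the cranial crest shares with mesoderm. Ednrb and Erbb3 encode cell surface receptors, for endothelins and for neuregulins, that migrating crest cells need. Several of these genes are also active outside the crest, such as Prrx1 in limb mesenchyme, Sox9 in the sclerotome and otic vesicle, and Tfap2a in surface ectoderm, and the embryos held all of these tissues. In RNA from whole embryos, fewer cells of a type and less RNA per cell cannot be told apart.

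Summed FPKM of the libraries ran from 500126 to 662936, with the lowest sum in xHomo embryo 3. The libraries differed in make-up. Small RNA genes held 23.8% to 27.2% of summed FPKM in xHet embryos and 12.5% (embryo 3) to 27.3% (embryo 2) in xHomo embryos. The median-of-ratios size factor, which gives the typical level of a library, was 0.758 in xHomo embryo 3 and 0.965 to 1.11 in the others. The part of either in the values below was not tested. Embryo 3 of the xHomo group stood apart from the rest: 10.2% of its tested genes departed by 1 log2 unit or more from the mean of the xHet group, against 0.917% to 4.56% in the other 12 embryos. Xist, which marks a second X chromosome, was 0.05 to 0.10 FPKM in the 3 xHet and in 5 xHomo embryos and 30.5 to 158.8 FPKM in the other 5 xHomo embryos, which leaves the sexes unevenly spread over the groups. Replication-dependent histone messages, a sign of how poly(A) selection went, had summed levels of 14.7 to 19.4 FPKM over 7 genes in xHet and 22.1 to 45.7 FPKM in xHomo embryos. The placental and decidual markers Tpbpa, Prl3d1, Prl8a2 and Psg17 summed to at most 2.95 FPKM in any embryo, with Tpbpa listed at 0 in all of them.

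All 10 genes were above 0 in every embryo and all passed the filter of a mean of 1 FPKM, and their levels spanned 23.5-fold from the highest mean to the lowest. Twist1, a basic helix-loop-helix factor of mesenchyme (mm9 chromosome 12, 34642536 to 34644696), had the highest level, 52.6 FPKM over the 13 embryos, and was above each of the others in 13 of 13 embryos. Ednrb, Prrx1 and Sox9 followed at 18.4, 17.4 and 14.8 FPKM with overlapping ranges. Sox9 was above Tfap2a, at 8.06 FPKM, in 13 of 13 embryos, and these 2 ranges did not overlap. Sox10, Snai2 and Tfap2b, at 6.25, 6.08 and 5.71 FPKM, could not be ordered beyond their spread, since Sox10 was above Snai2 in 6 of 13 embryos and Snai2 above Tfap2b in 8 of 13. Erbb3, at 3.78 FPKM, and the forkhead factor gene Foxd3 (mm9 chromosome 4, 99322990 to 99325362), at 2.24 FPKM, were the lowest, and Erbb3 was above Foxd3 in 11 of 13 embryos. The order therefore held firmly at its top and between Sox9 and Tfap2a, while neighbours elsewhere shared parts of their ranges.

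The promoters of the 2 genes at the ends of this order are printed to show what stands at the start of each, from RefSeq on GRCm38.p6, 250 bases before to 50 after the annotated start, on the gene's own strand. Capitals mark exact matches, on either strand, to the TATA box (TATAAA), the CCAAT box (CCAAT) or the palindromic E-box (CACGTG).
Twist1: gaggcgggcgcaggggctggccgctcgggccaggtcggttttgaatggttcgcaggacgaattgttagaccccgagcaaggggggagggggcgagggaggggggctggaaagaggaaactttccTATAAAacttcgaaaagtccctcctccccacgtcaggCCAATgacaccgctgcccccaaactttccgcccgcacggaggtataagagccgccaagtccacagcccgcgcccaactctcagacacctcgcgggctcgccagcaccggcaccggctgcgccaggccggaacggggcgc
Foxd3: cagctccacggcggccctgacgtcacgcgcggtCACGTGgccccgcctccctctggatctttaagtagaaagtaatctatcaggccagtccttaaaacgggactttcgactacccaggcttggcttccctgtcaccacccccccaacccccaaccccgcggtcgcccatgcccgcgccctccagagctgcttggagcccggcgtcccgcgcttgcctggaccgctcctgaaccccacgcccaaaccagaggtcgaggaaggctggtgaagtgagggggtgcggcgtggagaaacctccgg
Both windows are rich in G and C, at 66.0% for Twist1 and 65.7% for Foxd3 against a median of 52.7% over 32851 promoters, and they hold 27 and 25 CG pairs against a median of 7. The Twist1 window (chr12:33957421-33957720) holds 1 TATAAA, beginning at -126 from the annotated start, and 1 CCAAT, beginning at -89. They are found in 13.6% and 37.4% of all promoters. The Foxd3 window (chr4:99656049-99656348) holds 1 CACGTG, beginning at -217, found in 7.2%. These matches describe the letters only. Promoter entries were matched for 6 of the 10 genes, Ednrb, Foxd3, Prrx1, Tfap2a, Tfap2b and Twist1; the others were Sox10, Sox9, Erbb3 and Snai2.

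**Figure D1:**
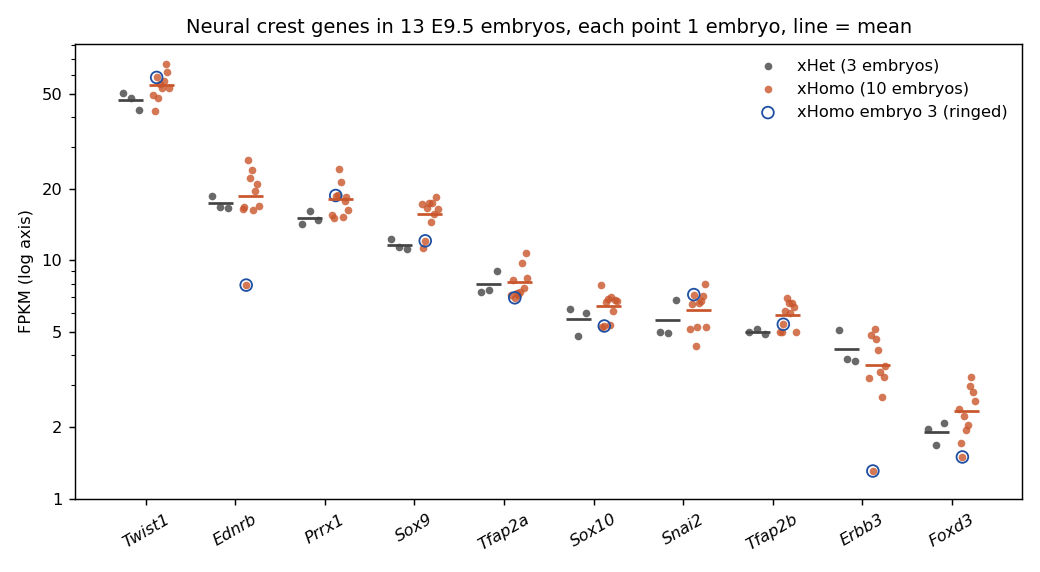
FPKM of each neural crest gene on a log axis, with 1 point per embryo (xHet grey, n = 3; xHomo orange, n = 10), group means as lines and xHomo embryo 3 ringed. Twist1 lies above all others, and the ringed embryo is well below the other embryos for Ednrb (7.88 FPKM) and Erbb3 (1.31 FPKM).

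The first comparison asked whether the level of any of these genes differed between xHomo and xHet embryos. None of the 10 passed limma at an adjusted p of 0.05 over the 12755 genes tested, where 3 genes (0.0235%) did. At an unadjusted p under 0.05, 1 of 10 was higher, Sox9, and 0 were lower, against 7.63% of all genes tested for higher and 1.72% for lower levels. With array weights, which let the fit trust some embryos less, Sox9 and Foxd3 passed (limma adjusted p = 0.00275 and 0.0376), in a fit that called 21.8% of all genes tested. The fitted difference was above 0 for 9 of 10 genes, against 59.7% of all genes tested, with a median of 0.16 log2 units beside 0.05 over all genes. That count was 7 of 10 under TPM, in which FPKM are rescaled to the same sum in every library, and 5 of 10 under TPM without small RNA genes, where the median of all genes was -0.03 and -0.12. In 0 of the 10 did the groups stand fully apart, as they did for 2.24% of genes tested.

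The AP-2 factor genes came out differently from each other. Tfap2a (mm9 chromosome 13, 40811044 to 40829192) stood at 7.39, 7.48 and 9.03 FPKM in the 3 xHet embryos, in replicate order, and at 6.97 to 10.76 FPKM, median 7.53, in xHomo embryos. The xHomo values fell on both sides of the xHet range, 2 above and 5 below, and the difference of 0.01 log2 units (95% interval -0.25 to 0.27, limma adjusted p = 0.977) changed sign under other scalings. Tfap2b (mm9 chromosome 1, 19198995 to 19228815) was tight in xHet embryos, at 4.99, 5.16 and 4.90 FPKM, and lay between 4.99 and 6.94 FPKM, median 6.10, in xHomo embryos. For Tfap2b 7 of 10 xHomo embryos were above the xHet range and 0 below, a difference of 0.19 (95% interval -0.03 to 0.42, limma adjusted p = 0.577).

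Among the factors that specify the crest, Sox9 had the largest fitted difference. Sox9, an SRY-related factor also needed for cartilage (mm9 chromosome 11, 112643524 to 112649071), stood at 12.25, 11.39 and 11.21 FPKM in the 3 xHet embryos. Among xHomo embryos it lay between 11.26 and 18.49 FPKM with a median of 16.5. Of the 10 xHomo embryos 8 were above the xHet range, at 14.48 FPKM or more, while embryos 2 and 3, at 11.26 and 12.08 FPKM, lay within it. The difference was 0.39 log2 units (SE 0.13, 95% interval 0.11 to 0.67, unadjusted p = 0.00987, limma adjusted p = 0.494), and its adjusted p ran from 0.191 to 0.967 over the fits that left out 1 embryo. The replication histones moved with it: in the 8 embryos with high Sox9 the median departure of the 7 histone genes from the xHet mean was 0.41 to 1.26 log2 units, and in xHomo embryos 2 and 3 it was 0.11 and 0.27. Their part in the Sox9 values was not tested. Sox9 is also expressed in the sclerotome and otic vesicle. The 6 somite and sclerotome markers and 4 markers of otic vesicle and intermediate mesoderm had summed levels of 40.5 to 58.4 and 5.13 to 10.2 FPKM in xHomo embryos against 47.1 to 55.6 and 5.96 to 6.71 FPKM in xHet embryos. Both sums were highest in xHomo embryo 9, where Sox9 was highest too. Of the 6 somite and sclerotome markers 4 had a difference below 0, the sclerotome genes Pax1 and Pax9 among them (-0.33 and -0.17). The other 2, Tcf15 and Uncx, had differences of 0.26 and 0.14. Of the 4 markers of otic vesicle and intermediate mesoderm 3 had a difference above 0 (Oc90 0.34, Lmx1a 0.23 and Pax2 0.09) and 1 below (Pax8 -0.13). The part of these markers was not tested either.

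Sox10, the closely related factor of migrating crest and its glia (mm9 chromosome 15, 78985343 to 78994920), stood at 6.25, 4.84 and 6.01 FPKM in xHet and 5.27 to 7.92 FPKM, median 6.71, in xHomo embryos. Here 6 of 10 xHomo embryos were above the xHet range and 0 below (difference 0.14, 95% interval -0.11 to 0.40, limma adjusted p = 0.712). Foxd3 stood at 1.96, 1.69 and 2.08 FPKM in xHet and 1.5 to 3.25 FPKM, median 2.31, in xHomo embryos. Its values in xHomo embryos 7, 8, 9 and 10 were 2.97, 3.25, 2.81 and 2.57 FPKM, the 4 highest of all 13, yet the groups overlapped (difference 0.18, 95% interval -0.14 to 0.51, limma adjusted p = 0.718). Snai2, a zinc finger repressor of the epithelial state (mm9 chromosome 16, 14705952 to 14709475), stood at 4.99, 4.98 and 6.83 FPKM in xHet and 4.39 to 7.98 FPKM, median 6.58, in xHomo embryos (difference 0.13, 95% interval -0.19 to 0.44, limma adjusted p = 0.806). For Snai2 3 of 10 xHomo embryos were above the xHet range and 1 below.

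The mesenchymal factors were both above the xHet range in 7 of 10 xHomo embryos. Twist1 stood at 50.39, 47.76 and 42.72 FPKM in xHet and 42.47 to 66.37 FPKM, median 54.0, in xHomo embryos (difference 0.20, 95% interval -0.05 to 0.45, limma adjusted p = 0.589). Prrx1, a paired-related homeobox gene (mm9 chromosome 1, 165175250 to 165243781), stood at 14.17, 16.15 and 14.83 FPKM in xHet and 15.12 to 24.24 FPKM, median 18.2, in xHomo embryos (difference 0.24, 95% interval -0.03 to 0.51, limma adjusted p = 0.566). The highest Prrx1 values, 24.24 and 21.35 FPKM, were in xHomo embryos 5 and 6, and the highest Twist1 values, 66.37 and 61.53 FPKM, in embryos 8 and 9. Limb and lateral plate markers, which share Prrx1, summed to 26.6 to 36.5 FPKM over 5 genes in xHomo and 25.9 to 29.0 FPKM in xHet embryos, the highest sum being in xHomo embryo 5; their part was not tested.

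With xHomo embryo 3 included, the receptor genes had the widest spread among xHomo embryos. Ednrb, the endothelin receptor of melanocyte and enteric precursors (mm9 chromosome 14, 104213842 to 104243390), stood at 18.68, 16.74 and 16.65 FPKM in xHet and 7.88 to 26.48 FPKM, median 18.2, in xHomo embryos. Erbb3, the neuregulin receptor of glial precursors (mm9 chromosome 10, 128006424 to 128026557), stood at 5.09, 3.87 and 3.80 FPKM in xHet and 1.31 to 5.18 FPKM, median 3.50, in xHomo embryos. Both minima were in xHomo embryo 3 and both maxima in xHomo embryo 4. The next lowest xHomo values were 16.23 FPKM for Ednrb, in embryo 7, and 2.67 FPKM for Erbb3, in embryo 8. The SD of log2(FPKM+1) among xHomo embryos was 0.45 for Ednrb and 0.415 for Erbb3, larger than in 92.5% and 89.2% of genes tested, against 0.159 to 0.246 for the 8 transcription factor genes and a median of 0.234 over all genes tested. These SDs include xHomo embryo 3 and are not given without it, so the wide spread may rest on that embryo. Between groups, Ednrb differed by 0.05 (95% interval -0.47 to 0.57, limma adjusted p = 0.958) and Erbb3 by -0.22 (95% interval -0.72 to 0.28, limma adjusted p = 0.787). Without xHomo embryo 3 these became 0.17 and -0.11 (limma adjusted p = 0.556 and 0.741). Erbb3 was the 1 gene of the 10 with a negative difference, and 6 of 10 xHomo embryos were below its xHet range.

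**Figure D2:**
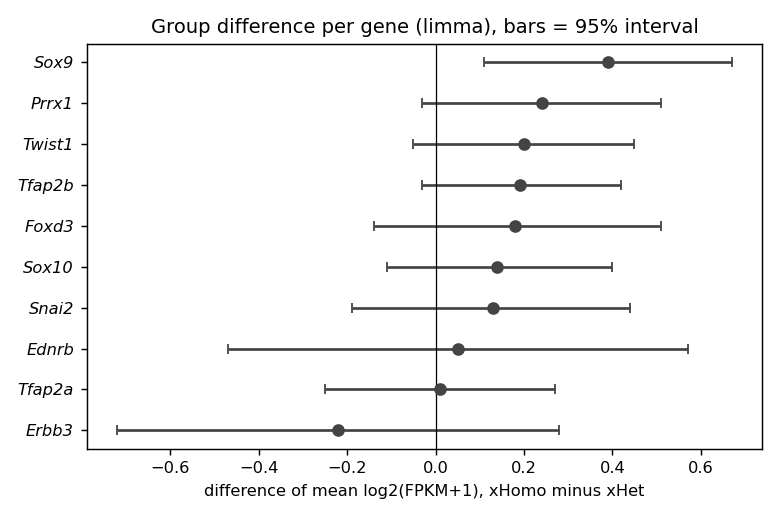
Fitted difference in mean log2(FPKM+1), xHomo minus xHet, for each of the 10 genes, with 95% intervals from limma. Sox9 has the only interval that leaves out 0 before adjustment (0.11 to 0.67), and Ednrb and Erbb3 have the widest.

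**Figure D3:**
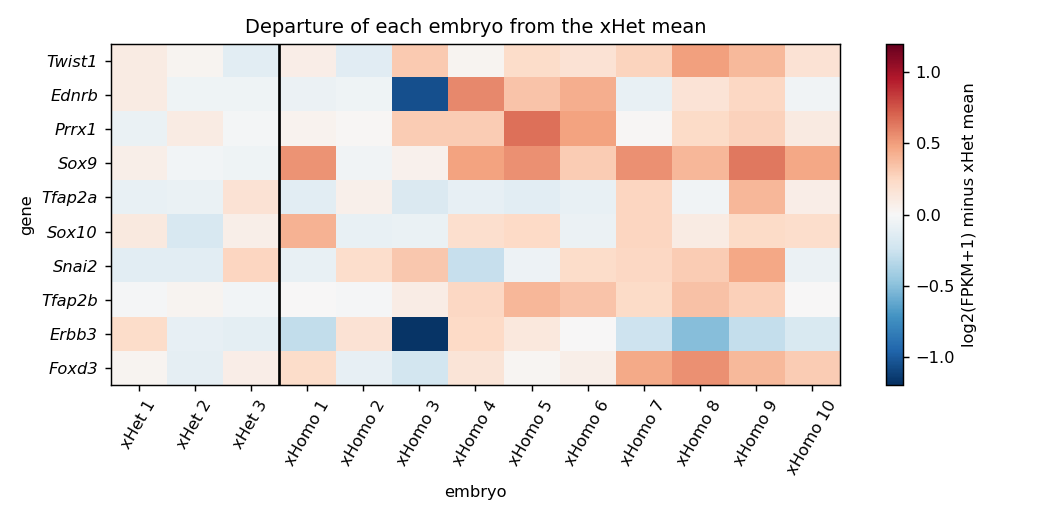
Departure of every embryo (columns) from the xHet mean in log2(FPKM+1) for each gene (rows), red above and blue below. The deepest blue cells are Erbb3 (-1.18) and Ednrb (-1.05) in xHomo embryo 3, while Twist1, Snai2 and Prrx1 in the same embryo are 0.30 to 0.32 above.

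In xHomo embryo 3 the receptor genes departed and the transcription factor genes did not follow them. Of the 10 genes 5 were below the xHet mean there, against 70.8% of all genes tested. Ednrb and Erbb3, at -1.05 and -1.18 log2 units, were the 2 of 10 that were at least 1 unit lower, against 9.71% of all genes tested. The 8 transcription factor genes lay between -0.22 (Foxd3) and 0.32 (Snai2), where the median of all genes tested in that embryo was -0.27. To see how far this reached, the 79 tested genes of the crest lists, the 10 genes included, were sorted by their product after these values had been seen. All 32 genes of membrane or secreted proteins were below the xHet mean in xHomo embryo 3, with a median of -0.85 and a highest value of -0.40. Of the 44 transcriptional regulators 23 were below, with a median of -0.01 and a range of -0.57 to 0.59. The 13 genes at least 1 unit lower were all from the membrane and secreted class and, beside Ednrb and Erbb3, were the collagen gene Col2a1 (-1.73), the receptor genes Kit (-1.5), Nrp1, Erbb2, Nrp2, Ret, Pdgfra and Ednra, the endothelin-converting enzyme gene Ece1, the semaphorin gene Sema3f and the cadherin gene Cdh6. In the other 9 xHomo embryos the median of the membrane and secreted class lay between -0.07 and 0.14 and 0 of its genes were 1 unit lower.

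Transcript length moved with the same departure. Over 11549 genes with an annotated length, 90.5% of those tested, the median departure in xHomo embryo 3 went from 0.01 in the shortest of 4 length classes to -0.46 in the longest, against 0.11 and 0.05 in the other xHomo embryos. The membrane and secreted class had longer transcripts, with a median of 4670 bases against 2707 for the transcriptional regulators. Across genes, which are not independent replicates, Spearman's rho between length and departure in that embryo was -0.339 over the 11549 genes, -0.467 over the 79 crest genes and -0.309 over the 10 genes. The longest transcripts of the 10 were those of Prrx1 (6527 bases, departure 0.30), Erbb3 (6016 bases, -1.18) and Tfap2b (5863 bases, 0.09), followed by Sox9 (4135 bases, 0.05) and Ednrb (4107 bases, -1.05). The part of length in the receptor values was not tested.

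**Figure D4:**
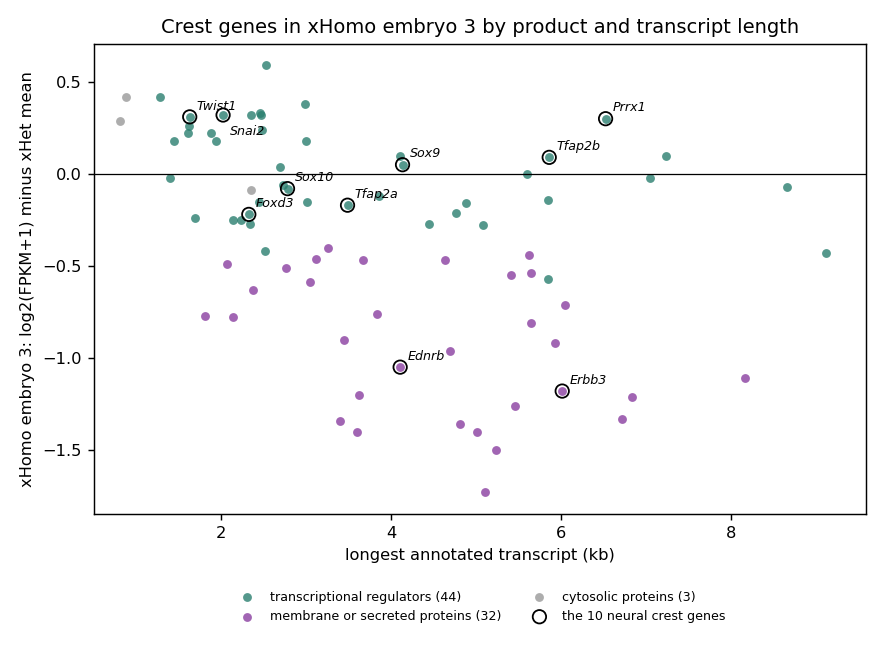
Departure from the xHet mean in xHomo embryo 3 (vertical axis, log2 units) against the longest annotated transcript (horizontal axis, kilobases) for 79 crest genes, coloured by the kind of product, with the 10 neural crest genes ringed and named. All 32 membrane or secreted products, with transcripts of 1805 to 8167 bases, lie below 0. The 44 transcriptional regulators, with transcripts of 1278 to 9124 bases, lie between -0.57 and 0.59. The classes were assigned by hand after these values were seen, and the part of length was not tested.

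How the genes moved with one another across embryos was asked for 8 pairs, with Pearson's r and Spearman's rho of log2(FPKM+1). Sox9 and Sox10 moved together over the 13 embryos, with r = 0.806 (permutation p = 0.0013, or 0.0091 adjusted over the pairs) and rho = 0.863 (permutation p = 0.00028, or 0.00196 adjusted). Among the 10 xHomo embryos alone r was 0.872 (permutation p = 0.00036, adjusted p = 0.00252), and without the 2 embryos farthest from the median of Sox9 it was 0.833 over 11 (permutation p = 0.00242). Of the xHomo embryos, 1, 5, 7 and 9 were high in both genes and embryos 2 and 3 low in both. The relation depended on scaling: with small RNA genes removed and each library rescaled to the same sum, r was 0.643 (permutation adjusted p = 0.147). Over all 13 embryos 0 of the other pairs passed, and 1 was not pooled. Sox10 with Foxd3 came nearest, at r = 0.630 (permutation p = 0.022, 0.077 adjusted), rho = 0.632 (permutation p = 0.0237, 0.081 adjusted) and r = 0.637 over 11 embryos; it passed without xHomo embryo 5 (r = 0.691, permutation p = 0.0498 adjusted) or 8 (r = 0.752, permutation p = 0.0174 adjusted).

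The remaining pairs gave lower values. Twist1 with Prrx1 gave r = 0.423 (permutation p = 0.149, 0.262 adjusted) and rho = 0.451 (permutation p = 0.125, 0.219 adjusted). Twist1 with Snai2 gave r = 0.424 (permutation p = 0.150, 0.262 adjusted) and rho = 0.599 (permutation p = 0.0347, 0.081 adjusted). Sox10 with Twist1 gave r = 0.235 (permutation p = 0.437, 0.611 adjusted) and rho = 0.368 (permutation p = 0.218, 0.305 adjusted). The receptor gene Erbb3, in glial precursors a companion of Sox10, gave with it r = 0.105 (permutation p = 0.740, 0.864 adjusted) and rho = -0.165 (permutation p = 0.590, 0.593 adjusted). The AP-2 genes gave r = 0.0291 (permutation p = 0.925, 0.925 adjusted) and rho = -0.162 (permutation p = 0.593, 0.593 adjusted). Without the 2 embryos farthest from the median of the first gene, these 5 values of r were 0.407, 0.508, 0.293, 0.262 and -0.436. Sox10 with Ednrb was not pooled, because xHomo embryo 3 lay apart from the rest in Ednrb. Among the 10 xHomo embryos alone Twist1 with Snai2 passed by rank (rho = 0.782, permutation p = 0.0111, 0.0389 adjusted) and not by Pearson's r (0.547, permutation p = 0.102, 0.238 adjusted).

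**Figure D5:**
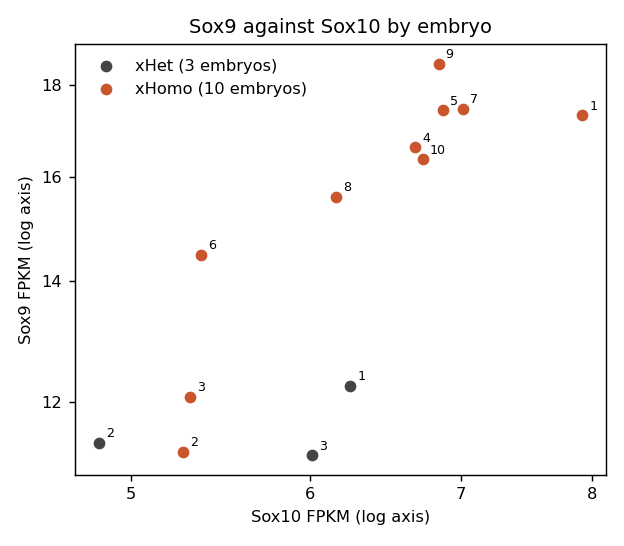
Sox9 against Sox10 in FPKM on log axes, 1 point per embryo, numbered by replicate (xHet grey, xHomo orange). The embryos with most Sox10 have most Sox9 (r = 0.806 over 13), and xHomo embryos 2 and 3 sit with the xHet embryos at 11.26 and 12.08 FPKM of Sox9.

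Reads shared between relatives were considered for this pair, since Sox9, Sox10 and Sox8 belong to 1 subfamily. The longest run of bases shared by the longest annotated transcripts of Sox9 and Sox10 (GENCODE M21) was 44 bases in the coding part of both, and for Tfap2a and Tfap2b it was 29 bases, again coding. They are printed 5′ to 3′ to show how little exact sequence these relatives share.
Sox9 and Sox10: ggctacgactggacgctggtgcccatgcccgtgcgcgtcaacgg
Tfap2a and Tfap2b: acggccctgcagaactatctcaccgaggc
No stretch of 50 bases was shared in any of 11 pairs of relatives, which also covered Twist1 with Twist2, Prrx1 with Prrx2, Snai2 with Snai1, Ednrb with Ednra and Erbb3 with Erbb2. The read length is not given in the sources used here, so shorter reads could still be shared. Only exact matches were looked for, so reads placed with mismatches are not covered. The part of shared reads in the relation of Sox9 and Sox10 was not tested. No locus of the 10 genes overlapped another gene of the deposited table.

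The genes most like Sox10 and Twist1 in their pattern over the 13 embryos were looked up among 12745 tested genes as a description. Nearest to Sox10 were the histone genes Hist1h4a (Pearson r = 0.898, Spearman rho = 0.874), Hist1h1a (r = 0.863) and Hist1h3b (r = 0.839), with Pde8a (r = 0.879) and Trim46 (r = 0.878). Nearest to Twist1 were Ube2c (r = 0.942, rho = 0.951), Fam122a (r = 0.938), Eci2 (r = 0.935), Spg21 (r = 0.933) and Gnb1 (r = 0.932). These are the largest of many values and carry no test. The histone genes are the same kind that stood higher in xHomo libraries, and their part in the Sox10 pattern was not tested.

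Other genes of the crest were then compared between groups, from 5 lists holding 74 genes, of which 69 were tested. The lists were chosen with earlier results of these data known, so their counts describe these data and carry no independent support. None passed limma after adjustment in either direction, and 19 did with array weights, in the fit that called 21.8% of all genes tested. At an unadjusted p under 0.05, 11 were higher and 0 lower, against 7.63% and 1.72% of all genes tested. Of the 8 plate border genes 2 were higher at an unadjusted p under 0.05, with a list median of 0.13 log2 units. The homeobox gene Msx2 averaged 8.68 ± 0.532 FPKM (SD, n = 3) in the xHet group and 11.9 ± 2.23 FPKM (SD, n = 10) in the xHomo group, above the xHet range in 10 of 10 (limma adjusted p = 0.494). The groups stood fully apart, in either direction, for 2.24% of all genes tested. Msx1 averaged 7.5 ± 0.547 and 11.5 ± 2.73 FPKM, above the xHet range in 9 of 10 (limma adjusted p = 0.494). Zic2 and Pax3, also factors of the border and dorsal neural tube, differed by 0.22 and 0.12 (limma adjusted p = 0.658 and 0.756).

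Genes of specification and delamination had 6 of 12 members at an unadjusted p under 0.05, all higher, against 7.63% of all genes tested, and a median of 0.18 that was 0.05 under TPM without small RNA genes, where the median of all genes was -0.12. Id3, an inhibitor of helix-loop-helix factors, averaged 121.8 ± 4.21 FPKM in the xHet group against 161 ± 19.5 FPKM in the xHomo group (limma adjusted p = 0.449). Sox8, the third member of the Sox9 and Sox10 subfamily, averaged 1.73 ± 0.282 and 2.48 ± 0.317 FPKM (limma adjusted p = 0.481). Both were above the xHet range in 10 of 10 xHomo embryos, where the groups stood fully apart, in either direction, for 2.24% of all genes tested. The AP-2 gene Tfap2c averaged 2.24 ± 0.249 and 3.95 ± 1.15 FPKM, and Snai1, a relative of Snai2, averaged 18.5 ± 2.67 and 22.2 ± 2.47 FPKM (limma adjusted p = 0.481 and 0.521). Tfap2c is also a gene of surface ectoderm, whose 7 markers summed to 80.5 to 132 FPKM in xHomo and 89.3 to 96.6 FPKM in xHet embryos; the keratin genes Krt18 and Krt8 averaged 22.3 ± 1.26 and 28.7 ± 2.67 FPKM in the xHet group against 31.5 ± 5.47 and 40.8 ± 7.43 FPKM in the xHomo group (both limma adjusted p = 0.481). Of these 7 markers 5 had a difference above 0, 4 of them at an unadjusted p under 0.05 (Krt18, Krt8, Trp63 and Grhl3), while Grhl2 differed by 0.04, Epcam by -0.05 and Cdh1 by -0.15. Their part was not tested.

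The signals and receptors had 0 of 22 members at an unadjusted p under 0.05, with a median of -0.16 that was -0.05 without xHomo embryo 3. The ligand genes Wnt1 and Wnt3a of the dorsal neural tube differed by 0.47 and 0.24 (limma adjusted p = 0.638 and 0.678). Nrg1, which encodes the ligand of Erbb3, averaged 1.52 ± 0.387 and 1.21 ± 0.280 FPKM (difference -0.19, limma adjusted p = 0.688). Ece1, which encodes the enzyme that activates endothelins, averaged 36.5 ± 2.29 and 31.0 ± 6.89 FPKM (limma adjusted p = 0.715) and was below the xHet range in 8 of 10 xHomo embryos. Ligand and receptor genes of the Ednrb and Erbb3 pathways thus showed no called difference in either direction.

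Lineage genes had 2 of 11 tested members at an unadjusted p under 0.05, both higher, with a median of 0.16. Hand2, a factor of sympathetic neurons that limb and heart also use, averaged 8.42 ± 0.349 FPKM in the xHet group and 10.9 ± 1.36 FPKM in the xHomo group, above the xHet range in 10 of 10 (limma adjusted p = 0.481), against 2.24% of all genes tested whose groups stood fully apart in either direction. The autonomic factor gene Phox2a averaged 1.23 ± 0.356 and 1.92 ± 0.464 FPKM (limma adjusted p = 0.512). The glial gene Cdh19 and the pigment genes Dct and Pmel were under the filter, with group means of at most 0.681 FPKM.

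Skeletogenic mesenchyme genes and known Sox9 targets had 1 of 16 tested members at an unadjusted p under 0.05, with a median of 0.13. It was Twist2, the relative of Twist1, with a mean of 9.08 ± 1.24 FPKM in the xHet group and 13.6 ± 1.91 FPKM in the xHomo group, above the xHet range in 9 of 10 (difference 0.53, SE 0.13, limma adjusted p = 0.346). Alx1, a homeobox gene of the facial mesenchyme, differed by 0.25 (limma adjusted p = 0.593), and Pdgfra, a growth factor receptor gene, by -0.35 (limma adjusted p = 0.600). The cartilage collagen genes Col2a1, Col9a1, Col9a3 and Col11a2, which are Sox9 targets in cartilage and were picked here for that role, differed by -0.29, 0.01, 0.03 and 0.05 (limma adjusted p = 0.761 to 0.983). These differences include xHomo embryo 3, where the genes departed by -1.73, -0.76, -0.59 and -0.71 log2 units. Col2a1 stood at 31.46 FPKM in that embryo and at 90.5 to 114.46 FPKM in the other xHomo embryos, against 100.16 to 111.75 FPKM in xHet embryos. Of the 10 xHomo embryos, 1 was above the xHet range of Col2a1 and 7 were below it. For Col9a1, Col9a3 and Col11a2, 4, 5 and 5 were above and 3, 2 and 2 below. Embryo 3 is among those below for each gene. Fitted differences of these genes without that embryo are not given, and whether they followed Sox9 was not tested. Runx2, a bone factor gene, was under the filter at a mean of 0.217 FPKM in xHet embryos.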

How the data were processed

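Directional libraries were made from poly(A) RNA of column-purified total RNA, per the labels' protocols. The authors deposited FPKM values per gene and sample with loci on the mm9 build; bcl2fastq 1.8.2, TopHat and Cufflinks were used, per the submitters' processing notes; further versions, gene models and the strand setting of the counting are not stated in the sources used here. Since FPKM keeps no counts, depth and counting intervals are unknown. The 10 genes and all lists were chosen with earlier results of these data known. From the values, log2(FPKM+1) of the 12755 genes with a mean of at least 1 FPKM was fitted with limma 3.58.1 in R 4.3.3 (trend, two-sided) on 13 samples without covariates, adjusted by Benjamini-Hochberg at 0.05 over all genes tested, so differences understate the change of low genes. Product classes of the crest genes were assigned by hand after the values were seen. The limma fit was tested only on simulated independent normal noise with the mean and SD of each gene. That noise held no library differences and no outlying embryo, so it does not show how the fit handles these. Intervals are 95% from limma. Correlations used 100000 permutations, adjusted over the pairs, and were not pooled where a gap exceeded 0.5 of the range. Named were the 10 genes, up to 4 genes of each list with the smallest p, the 5 genes most like Sox10 and Twist1, and Xist; other names were chosen after their values were seen. Some genes the rule names are not reported here. Python 3.11.15, numpy 2.4.6, pandas 2.3.3, scipy 1.17.1 and matplotlib 3.10.9 were used. Alternatives covered filters, pseudocounts, 4 scalings, Xist as covariate, array weights, an exact permutation test over 286 splits (smallest p 0.0035), a replicate block and leaving out each embryo.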

Additional observations from a re-analysis of the deposited data

Results flagged for a closer look

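In xHomo embryo 3 Ednrb, at 7.88 FPKM, was the lowest of the 10 xHomo embryos, with a gap to the next embryo of 0.587 of the whole range on the log2(FPKM+1) scale. Erbb3, at 1.31 FPKM in the same embryo, had a gap of 0.470 of the range, just past Dixon's 95% bound for 10 samples. Both bounds are those that chance passes in about 1 of 20 groups, and 10 genes were looked at. The same embryo had the lowest summed FPKM and the largest share of departing genes, and the part of either in these values was not tested.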

How the results depend on the processing

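In every fit but the one with array weights, 0 of the 10 genes and 0 of the 69 other crest genes passed, the leave-one-out fits included (0 to 0 in each); with array weights 2 of the 10 (Sox9, 0.46, and Foxd3, 0.30) and 19 of the others passed, in a fit that called 2779 genes (21.8%) against 3 in the reported one. The count over all genes was 11 without a filter, 1 at a filter of 5 FPKM, which leaves out Erbb3 and Foxd3, 6 and 8 under TPM with and without small RNA genes, 5 after quantile normalization, 1 with the Xist covariate, 0 by the exact permutation test, whose smallest p is 0.0035, and 1 to 11 leaving out 1 embryo (11 without xHomo embryo 3, 5 without xHomo embryo 2, 1 without xHet embryo 2 or 3). Rescaling to TPM moved the median of all genes from 0.05 to -0.03 and that of the 10 genes from 0.16 to 0.10; leaving out small RNA genes as well moved them to -0.12 and 0.0031, so that the 10 genes stood 0.12, 0.13 and 0.13 above all genes. Genes above 0 numbered 9 of 10, then 7 and 5, and 6 with the replicate block. Tfap2a turned under TPM (-0.06, and -0.16 without small RNA genes), median-of-ratios (-0.02), quantile normalization (-0.01) and the Xist covariate (-0.12), and ran from -0.03 to 0.10 leaving out 1 embryo. Ednrb turned under TPM (-0.03, and -0.13 without small RNA genes) and ran from -0.01 to 0.17. Sox10 (-0.01), Snai2 (-0.03) and Pax3 (-0.04) turned under TPM without small RNA genes. Whether the replicate numbers pair the embryos is not stated in the labels. Same-numbered embryos deviated from their group means with correlations of -0.0652, -0.0403 and -0.0383, which are too few pairs to decide it. With the replicate block 1 gene passed, none of the 10, and Foxd3 (-0.03), Tfap2a (-0.08), Ednrb (-0.39), Pax3 (-0.01) and Wnt3a (-0.0035) turned. Replicate numbers above 3 occur only in the xHomo group, so the differences of this fit rest on embryos 1, 2 and 3 of each group. In these 3 xHomo embryos Ednrb departed from the xHet mean by -0.07, -0.05 and -1.05 log2 units. Of the pairs, 1 passed, 0 under TPM without small RNA genes, 2 by rank among the xHomo embryos alone, a setting chosen after seeing the data, and 1 to 2 leaving out 1 embryo, where Sox10 with Foxd3 passed without xHomo embryo 5 (r = 0.691, permutation adjusted p = 0.0498) or 8 (r = 0.752, permutation adjusted p = 0.0174). Sox10 with Erbb3 turned by rank (-0.165, and -0.115 in xHomo embryos) and ran from -0.273 to 0.217; Tfap2a with Tfap2b turned by rank (-0.162, and -0.00606 in xHomo embryos), without 2 embryos (-0.436) and under TPM without small RNA genes (-0.374) and ran from -0.203 to 0.165; Sox10 with Twist1 turned under TPM without small RNA genes (-0.322). The cause of these changes was not tested.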
